A study of Mus musculus with 6 samples.

Results

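Galectins are small proteins that bind beta-galactosides, above all the lactosamine units of N-glycans and O-glycans, through a conserved carbohydrate recognition domain. They are made in the cytosol, leave the cell without a signal peptide, and outside it cross-link glycoproteins of the cell surface and of the matrix; inside it they mark damaged endosomes and lysosomes. Galectin-1 and galectin-2 have a single recognition domain and form pairs, galectin-4, galectin-8 and galectin-9 carry a pair of domains in tandem, and galectin-3 joins its domain to a flexible tail through which it forms larger assemblies. Galectin-3, once called Mac-2, is a long-used marker of macrophages, and galectin-1 is plentiful in smooth muscle and other mesenchymal cells. Lgals3bp encodes no galectin: its product is a secreted glycoprotein with a scavenger receptor domain that binds galectin-3.

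The genes described here are Lgals1, Lgals2, Lgals3, Lgals4, Lgals7, Lgals8, Lgals9 and Lgals3bp. They were chosen by name: all probe sets whose symbol in the platform annotation was one of these 8 genes, of 18194 named there, were taken, 11 of the 45101 probe sets on the array. Lgals1, Lgals2 and Lgals8 had 2 probe sets each and the other 5 genes had 1. Total RNA was from whole aorta of 32-week-old mice, in 2 groups of 3 arrays each: wild-type C57BL/6J mice, and apoE-/- mice on the C57BL/6J background, which lack apolipoprotein E and develop high plasma cholesterol and plaques. Sex, diet and the number of animals per array are not given in the labels, and nothing says that replicates came from separate animals, so each p-value rests on the spread between arrays, which may be technical. Intensities are on the authors' linear scale, with every array set to one common level, and the intensity of one probe set is not compared with that of another.

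Fold changes are differences of log2(intensity + 16), apoE-/- minus wild type, and a gene was called where limma's moderated test gave an adjusted p (Benjamini-Hochberg) under 0.05 over 13031 genes, each read by its brightest probe set. The lower 40% of probe sets by mean were left out before that fit, which left 9 of the 11 probe sets and 7 of the 8 genes; the probe set of Lgals7 and 1 probe set of Lgals2 lay under the filter. All 11 were therefore also read in a fit of all 45037 probe sets without a filter, where the adjustment is over more tests and 1.22% were called. Median intensity per array was 178 to 195.5 units. Apoe itself read 4309.1 to 5685.6 units in wild type and 56.3 to 462.1 in apoE-/-, which fits the labels. The apoE-/- replicate 2 array read lower than the other apoE-/- arrays for macrophage genes, so values without it are given where they change a call.

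Among the 7 genes tested, 2 rose in apoE-/- aorta (Lgals3 and Lgals3bp), 1 fell (Lgals4) and 4 were not called. Over all genes tested, 3.63% were called, 3.15% higher and 0.483% lower. In 5 of the 7 genes the 3 apoE-/- arrays lay wholly above or below the 3 wild-type arrays, against 24.6% of all genes. The members were chosen with earlier results of these data known, so these shares are no test of the set. Of the 3 calls, that of Lgals3 held whichever array was left out; those of Lgals3bp and Lgals4 did not, as given below.

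For the called genes and for Lgals9, the 300 bases from 250 before to 50 after the transcription start are shown from RefSeq (GRCm38.p6), since they are the sequence next to the starts of the genes with the smallest p-values among the members. Capitals mark matches, on either strand, to 4 motifs picked after the sequences and the results had been seen: the GC box GGGCGG, the core of the interferon-stimulated response element (GAAA, any 2 bases, GAAA), the AP-1 site TGANTCA and the PU.1 site GAGGAAGT. No 2 of these matches overlapped in the sequences shown. The sequences are written in the direction of transcription.
Lgals3 (chr14:47373610-47373909, plus strand): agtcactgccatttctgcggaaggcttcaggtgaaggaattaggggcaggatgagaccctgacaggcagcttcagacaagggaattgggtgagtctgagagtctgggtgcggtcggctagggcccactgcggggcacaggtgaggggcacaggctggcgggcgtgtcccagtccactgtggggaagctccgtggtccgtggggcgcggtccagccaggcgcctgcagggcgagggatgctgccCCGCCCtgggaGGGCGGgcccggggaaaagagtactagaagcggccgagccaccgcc
Lgals3bp (chr11:118401910-118402209, minus strand): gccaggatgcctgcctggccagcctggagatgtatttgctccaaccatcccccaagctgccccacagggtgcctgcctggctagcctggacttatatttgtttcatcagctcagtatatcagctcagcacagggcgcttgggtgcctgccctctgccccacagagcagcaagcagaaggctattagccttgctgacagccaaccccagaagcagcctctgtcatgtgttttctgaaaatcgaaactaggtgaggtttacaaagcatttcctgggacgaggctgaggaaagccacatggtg
Lgals9 (chr11:78984875-78985174, minus strand): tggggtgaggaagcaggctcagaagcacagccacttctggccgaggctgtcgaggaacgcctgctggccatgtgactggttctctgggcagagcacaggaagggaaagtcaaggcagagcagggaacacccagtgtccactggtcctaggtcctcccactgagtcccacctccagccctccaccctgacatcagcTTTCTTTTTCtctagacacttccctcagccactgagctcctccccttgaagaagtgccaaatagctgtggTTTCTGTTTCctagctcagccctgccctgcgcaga
Lgals4 (chr7:28833544-28833843, plus strand): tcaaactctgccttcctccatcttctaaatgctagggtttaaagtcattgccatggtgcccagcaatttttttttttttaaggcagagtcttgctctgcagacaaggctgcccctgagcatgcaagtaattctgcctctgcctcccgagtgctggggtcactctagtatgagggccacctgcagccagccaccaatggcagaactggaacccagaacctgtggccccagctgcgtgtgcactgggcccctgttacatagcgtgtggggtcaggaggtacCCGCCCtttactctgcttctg

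Of the 8 genes, 7 had an entry in the promoter table. The Lgals3 window held 2 GC boxes, one starting 7 bases before the start and one at base 5 after it, and was 67.0% G and C, where the median over all promoter windows was 53.0% and the upper decile began at 69.7%. A GC box was found in 3 of the 7 windows (Lgals3, Lgals4 and Lgals7) and in 35.9% of the 32544 distinct promoter windows in the table. The Lgals9 window held 2 matches to the interferon-stimulated response element core, one starting 55 bases before the start and one at base 16 after it. That motif was in 3.45% of all windows and in no other of the 7. The AP-1 and PU.1 letters were in none of the 7 windows, against 7.79% and 3.11% of all windows. These matches describe the letters only and say nothing about binding in the aorta.

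Lgals3 was the galectin with the largest change. Its probe set read 775.2, 974.3 and 733.7 units on the wild-type arrays and 10895.9, 6712.0 and 10565.6 units on the apoE-/- arrays. The groups lay far apart, and the apoE-/- replicate 2 array was the lowest of its group yet far above all wild-type arrays. Means were 828 ± 129 and 9391 ± 2326 units (SD, n = 3), 11.3 times higher in apoE-/-. In log2 it rose by 3.46 ± 0.19 (SE), with a 95% interval of 3.02 to 3.89 and a limma adjusted p = 1.11e-04. It ranked 13 of 13031 genes by the size of the rise and 4 by p-value. In the fit of all probe sets, where 1.11% were called higher, Lgals3 was the single one of the 11 called, with limma adjusted p = 8.51e-04.

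**Figure D1:**
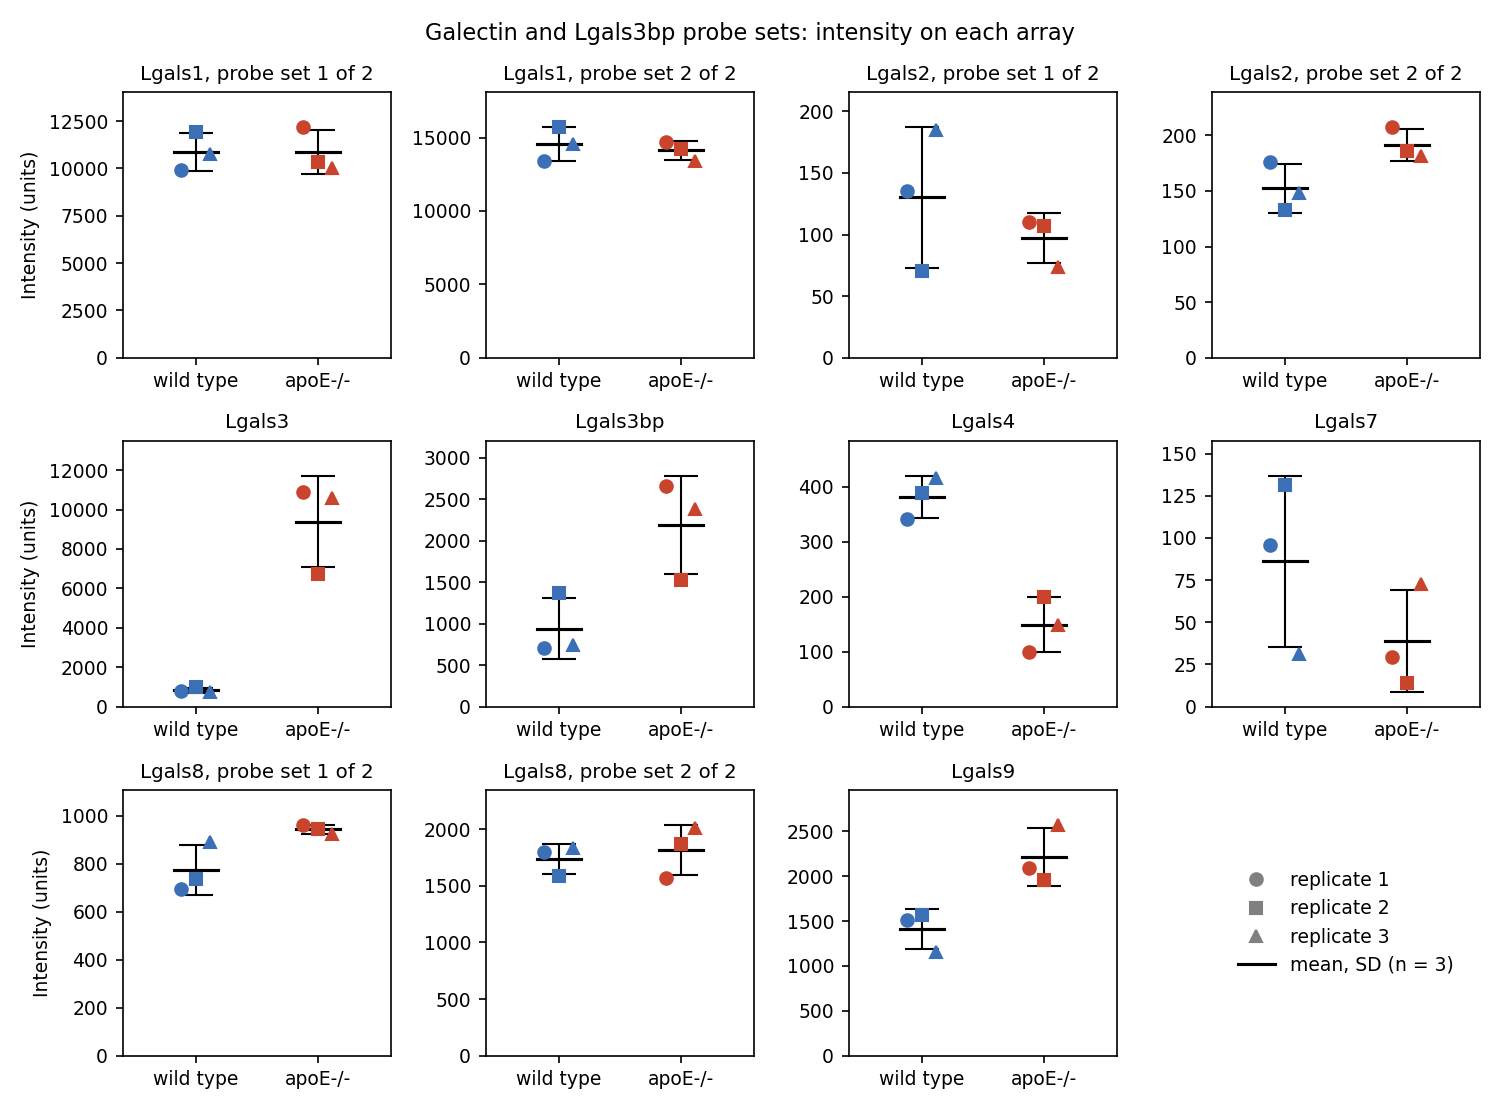
Intensity in units on a linear axis from 0 for each of the 11 probe sets, with wild-type arrays in blue, apoE-/- arrays in red, a shape for each replicate number, and the group mean with SD (n = 3) in black. Lgals3 stands at 733.7 to 974.3 units in wild type and 6712.0 to 10895.9 in apoE-/-, Lgals4 falls without overlap, and the Lgals1 groups overlap in both probe sets.

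Lgals3bp, the galectin-3 binding glycoprotein, rose less and with more spread. It read 711.7, 1370.0 and 742.6 units in wild type and 2666.9, 1528.3 and 2384.1 units in apoE-/-. The groups did not overlap, but the wild-type replicate 2 array and the apoE-/- replicate 2 array came close to each other. The mean went from 941 ± 371 to 2193 ± 593 units (SD, n = 3), 2.33 times higher. In log2 the rise was 1.23 ± 0.28 (SE) and the limma adjusted p = 0.0485. That p lies just under the threshold. Leaving out replicate 1 or 3 of wild type gave limma adjusted p = 0.142 and 0.156, and leaving out replicate 1 or 3 of apoE-/- gave 0.186 and 0.182. Leaving out replicate 2 gave 0.0108 for the wild-type array and 0.0197 for the apoE-/- one. Quantile normalization (0.0503), the median of probe sets (0.0533), no filter (0.0811) and no intensity trend (0.0956) also ended the call, as did the fit of all probe sets (0.106).

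Lgals4 encodes galectin-4, a tandem galectin known mainly from the epithelium of the gut, and it was the member that fell. It read 340.6, 389.0 and 415.7 units in wild type and 99.0, 199.2 and 148.0 units in apoE-/-. All apoE-/- values were under all wild-type values. The mean was 382 ± 38.1 units in wild type and 149 ± 50.1 in apoE-/- (SD, n = 3). In log2 this is -1.31 ± 0.23 (SE) with limma adjusted p = 0.0211. Nothing in the table shows the apoE-/- values to exceed background, and the size of the fall depends on the log offset; with an offset of 64 it was -1.09. The call ended when replicate 1, 2 or 3 of wild type was left out (limma adjusted p = 0.0546, 0.0574 and 0.0788) and when replicate 1 or 3 of apoE-/- was (0.0560 and 0.0757). It held without replicate 2 of apoE-/- (0.00688). In the fit of all probe sets the adjusted p was 0.0505, so that limma fit called none of the 11 lower, with Lgals4 alone at an unadjusted p under 0.05 among those that were lower; without replicate 2 of apoE-/- it called 1. In that fit 0.115% of all probe sets were called lower.

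Lgals4 and Lgals7 lie on the chromosome of Apoe, within 10 Mb of it, and the other 6 genes lie elsewhere. Among the 193 tested genes in that window, Apoe left out, 7 fell, Lgals4 itself among them, and 4 rose. That is 3.63% and 2.07%, against 0.428% and 3.16% of the 12837 other genes. All 3 apoE-/- arrays carry the targeted segment, so loss of Apoe and any other difference in that segment cannot be told apart here. Lgals6, a close copy of Lgals4 carried by some mouse strains, was not analysed here, and whether the Lgals4 probe set reads its transcript was not tested.

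Markers of epithelium were read beside Lgals4, because an aorta preparation could hold some. Of 12 genes of simple epithelium, such as that of the gut, 5 passed the filter and limma called none; none had an unadjusted p under 0.05 either, where 18.4% of all genes tested had one, and Cldn3, a tight junction protein, had the smallest p (log2 change 0.39 ± 0.21, limma adjusted p = 0.378). Their summed intensity was 1827 to 2649 units in wild type and 1799 to 2669 in apoE-/-, so the groups overlapped. Of 12 genes of stratified epithelium, 6 passed the filter and limma called none, with 1 at an unadjusted p under 0.05, near that share of all genes: Sbsn, a secreted protein of skin, had a log2 change of -0.71 ± 0.19 (limma adjusted p = 0.0914). The sum of those 6 was 1407 to 1611 units in wild type and 1048 to 1368 in apoE-/-, which did not overlap. That separation rested on Sbsn: without it, a sum added after seeing the data, the other 5 genes read 981 to 1163 and 819 to 1106 units, with overlap. The part of these genes in the result for Lgals4 was not tested.

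Lgals9, whose product binds the receptor Tim-3 on T cells and is known as an interferon-inducible galectin, lay at the edge of the threshold. It read 1508.4, 1568.0 and 1157.7 units in wild type and 2093.9, 1959.9 and 2573.7 units in apoE-/-. All apoE-/- values were above all wild-type values. The mean was 1411 ± 222 units in wild type and 2209 ± 323 in apoE-/- (SD, n = 3), 1.57 times as high. With a log2 difference of 0.64 ± 0.15 (SE), a 95% interval of 0.31 to 0.97 and limma adjusted p = 0.0509, it was not called. It passed with quantile normalization (0.0489), a 60% filter (0.0471), array weights (0.0334) and without apoE-/- replicate 2 (0.0437). Over all its alternatives in the fit of genes the limma adjusted p ran from 0.0334 to 0.185. In the limma fit of all probe sets the adjusted p was 0.103, and 0.0872 to 0.296 over the alternatives of that fit.

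Lgals1, the galectin of smooth muscle and mesenchyme, was not called, and its 95% intervals stayed within a log2 change of 0.28 in size. The brighter of its probe sets read 13414.1, 15742.8 and 14573.6 units in wild type and 14722.0, 14248.7 and 13422.7 in apoE-/-. The groups overlapped throughout. The log2 change was -0.04 ± 0.09 (SE, limma adjusted p = 0.846), with a 95% interval from -0.25 to 0.17. The other probe set ran from 9938.2 to 11908.2 units in wild type and from 10039.3 to 12203.6 in apoE-/-, and its log2 change had a 95% interval from -0.28 to 0.27 in the fit of all probe sets. The sign of either probe set's change turned when wild type replicate 2 was left out (0.014 and 0.067), so neither has a direction.

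Lgals8, a tandem galectin that recruits the autophagy machinery to damaged vesicles, was not called. Its brighter probe set overlapped between genotypes, at 1802.7, 1584.2 and 1830.7 units in wild type and 1571.7, 1870.7 and 2009.6 in apoE-/- (log2 change 0.06 ± 0.12, SE, limma adjusted p = 0.830). The other one did not overlap, with 696.6, 735.9 and 891.7 units against 963.1, 943.8 and 925.8. Its log2 change was 0.29 ± 0.11 (SE), with limma adjusted p = 0.335 in the fit of all probe sets, where 19.2% of all probe sets did not overlap. The intervals of the Lgals8 probe sets, -0.20 to 0.32 and 0.03 to 0.54, overlap.

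Lgals2 and Lgals7 were dim. Lgals2 encodes a galectin known mainly from the gut, and the probe set of it that passed the filter read 175.9, 133.0 and 148.1 units in wild type and 207.9, 186.0 and 181.1 in apoE-/-. These groups did not overlap, and the log2 change of 0.31 ± 0.18 (SE, limma adjusted p = 0.412) was not called. The other Lgals2 probe set, under the filter, went the opposite way, at 135.5, 70.7 and 184.9 units against 110.2, 107.0 and 73.8, with overlap (log2 change -0.31 ± 0.35, limma adjusted p = 0.764 in the fit of all probe sets). Lgals7, the galectin of stratified epithelium, read 95.7, 131.5 and 31.3 units in wild type and 29.3, 14.3 and 72.7 in apoE-/-. Its groups overlapped, and its log2 change was -0.89 ± 0.52 (SE, limma adjusted p = 0.532, 95% interval -2.10 to 0.31, fit of all probe sets). The table holds no detection calls, so neither gene is shown to be above background.

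**Figure D2:**
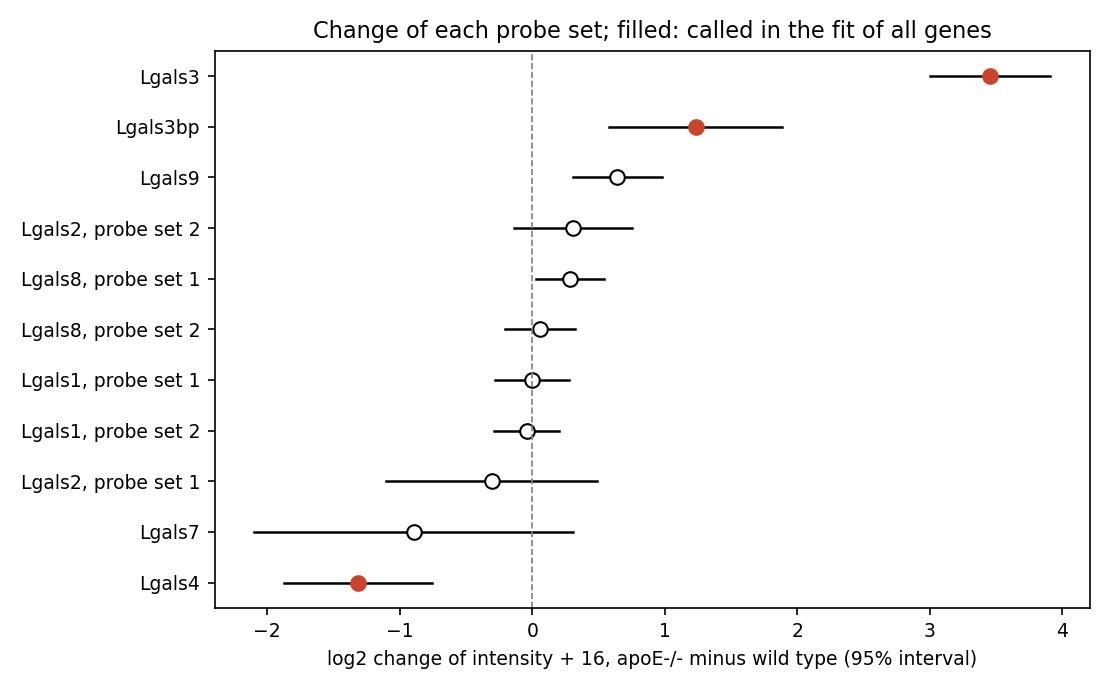
The log2 change of each of the 11 probe sets (apoE-/- minus wild type, intensity + 16) with its 95% interval from the limma fit of all probe sets, sorted by size; filled red points are the 3 genes called in the fit of all genes. Lgals3 stands at 3.46 and Lgals4 at -1.31, the intervals of both Lgals1 probe sets and of the brighter Lgals8 probe set (probe set 2) span 0, and the widest interval is that of Lgals7, from -2.10 to 0.31.

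Macrophage genes moved with Lgals3 and are given here beside it. Of 20 macrophage markers, all tested, 18 rose and none fell, where 3.15% of all genes rose and 0.483% fell. The list had a median log2 change of 1.63, and all genes tested had -0.05. The lectin receptor Clec7a had a log2 change of 3.01 ± 0.25, the pore-forming protein Mpeg1 2.91 ± 0.24, the lysosomal glycoprotein Cd68 2.87 ± 0.25 and the signalling adaptor Tyrobp 2.38 ± 0.23 (SE), with limma adjusted p-values between 8.37e-04 and 0.00144. The other 2 were Csf1r (0.50 ± 0.14, limma adjusted p = 0.0999) and Cd163 (0.02 ± 0.16, limma adjusted p = 0.962). The log2 change of Lgals3 was above that of each of the 20 markers. Between 14 and 19 of them rose when single arrays were left out. In whole tissue, more macrophages, more RNA of a gene per macrophage and RNA of that gene from other cells cannot be told apart.

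The summed intensity of the 20 markers was 31555, 31511 and 28411 units on the wild-type arrays and 100514, 68843 and 101858 units on the apoE-/- arrays, 2.96 times higher on average. No marker of the list was at 0. The apoE-/- replicate 2 array was the lowest of its group for this sum, as for Lgals3 and Lgals3bp.

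The members were also set against that sum array by array. Per 1000 units of the macrophage sum, Lgals3 read 24.6, 30.9 and 25.8 units in wild type and 108, 97.5 and 104 in apoE-/-, 3.81 times higher, without overlap. Lgals3bp read 22.6, 43.5 and 26.1 units in wild type and 26.5, 22.2 and 23.4 in apoE-/-, and the groups overlapped. Lgals9 read 47.8, 49.8 and 40.7 units in wild type and 20.8, 28.5 and 25.3 in apoE-/-, 0.539 times the wild-type mean, without overlap. All 9 probe sets of the members other than Lgals3 and Lgals3bp were lower on this ratio without overlap, at 0.141 to 0.539 times wild type, as any gene that rises clearly less than the sum must be. Lgals3 was the one member that was higher. The sum is weighted towards its brightest markers. In wild type these were Lyz1, Csf1r and Lyz2 (6070, 5333 and 4387 units), with log2 changes of 1.08, 0.50 and 1.45. Dimmer markers ranged from Cd163 (0.02) to Clec7a (3.01), and against one like Clec7a the ratio of Lgals3 would be smaller. With 3 arrays against 3, the smallest two-sided p of an exact permutation test is 0.1. These ratios therefore carry no test, and they show unequal change only.

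**Figure D3:**
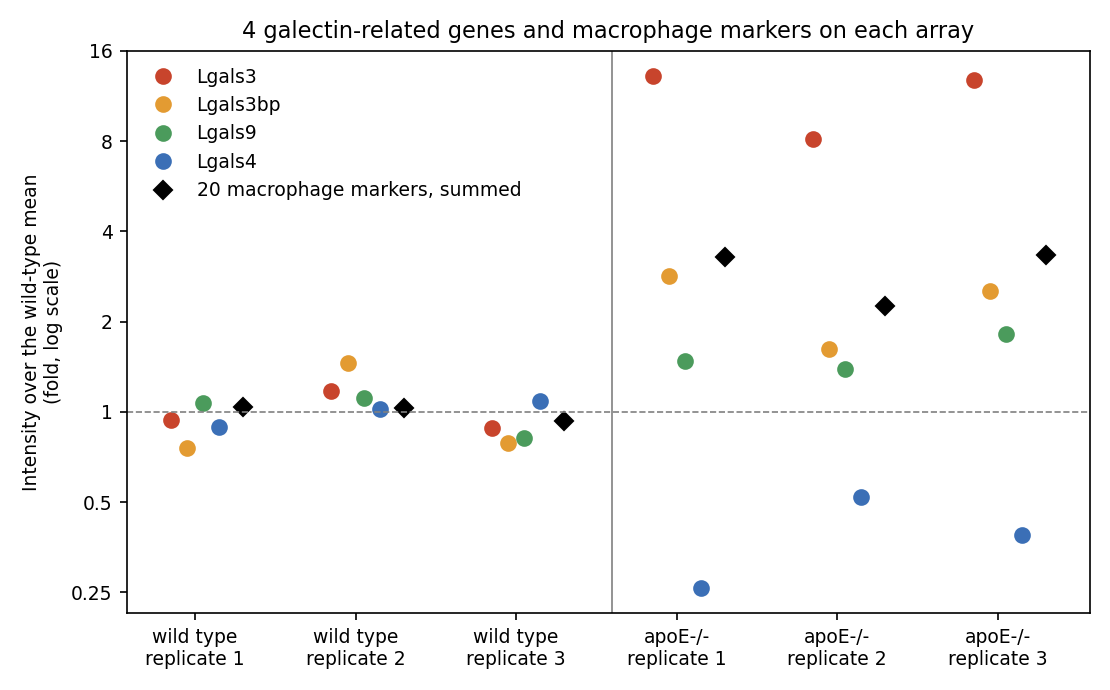
Intensity over the wild-type mean (fold, log2-spaced axis) on each of the 6 arrays for Lgals3, Lgals3bp, Lgals9, Lgals4 and the sum of the 20 macrophage markers. On the apoE-/- arrays Lgals3 lies at 8.11 to 13.2, the macrophage sum at 2.26 to 3.34, Lgals3bp at 1.62 to 2.83, Lgals9 at 1.39 to 1.82 and Lgals4 at 0.259 to 0.522.

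The genes whose centred log2 values over the 6 arrays were nearest to those of each called gene were also named, by the root mean square difference. Both genotypes share the centring, so the change for which the member was called enters this distance. Any gene has 3 nearest genes, so the names are a description and carry no test. Nearest to Lgals3 were Gpnmb, a glycoprotein of lipid-laden macrophages, at 0.21 log2 units, Wfdc17 at 0.23 and the inhibitory receptor Cd72 at 0.25, with log2 changes of 3.61, 3.46 and 3.08. Nearest to Lgals3bp were the metallothionein Mt2 at 0.19, the interleukin 4 receptor chain Il4ra at 0.21 and Gpsm3 at 0.21, with log2 changes of 1.09, 1.18 and 1.02; Mt2 was not called (limma adjusted p = 0.0618). Nearest to Lgals4 were Bves, a membrane protein of muscle, at 0.20, Vwa5b2 at 0.21 and the tubulin Tuba8 at 0.22, with log2 changes of -1.54, -1.04 and -0.91; Vwa5b2 and Tuba8 were not called (limma adjusted p = 0.0943 and 0.139).

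Of 32 listed ligands and partners, 26 were tested, 7 rose, 1 fell and 18 were not called, with a median log2 change of 0.19 against -0.05 over all genes. Trem2, a lipid-sensing receptor of macrophages reported to bind galectin-3, read 27.2 ± 9.01 units in wild type, a level not shown to be above background, and 763 ± 312 in apoE-/- (SD, n = 3). It passed the filter only through the apoE-/- arrays and is counted among the 7. Its call (limma adjusted p = 5.77e-04) is therefore given without a fold change. The integrin chains Itgb2 and Itgam, which pair on leukocytes, rose by 2.35 ± 0.29 and 1.74 ± 0.23 in log2, and the phosphatase Ptprc (CD45), a ligand of galectin-1, by 1.64 ± 0.25 (limma adjusted p = 0.00460, 0.00569 and 0.0110). These 4 genes are themselves made by macrophages or other leukocytes, and the macrophage sum above moved with them; its part was not tested. Named after its value was seen, the 1 fall was that of Mcam, an adhesion molecule of smooth muscle and endothelium that binds galectins, from 6931 ± 197 to 4942 ± 674 units (log2 change -0.49 ± 0.11, limma adjusted p = 0.0423). The number that rose was 2 without apoE-/- replicate 1, 4 without apoE-/- replicate 3 and 12 with the median of probe sets. Of the ligands none fell when any array other than replicate 2 of apoE-/- was left out, and 2 fell without that one.

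Of 24 genes of N-glycan branching and lactosamine synthesis, which build galectin ligands, all were tested, 1 rose and none fell. That is close to the 3.63% called over all genes. The median log2 change was 0.05. The gene that rose was B4galt5, a galactosyltransferase whose main known product is lactosylceramide, at 334 ± 68.4 units in wild type and 879 ± 264 in apoE-/- (SD, n = 3). Its log2 change was 1.33 ± 0.24 (SE) with limma adjusted p = 0.0211. None was called higher when replicate 3 of wild type or replicate 1 or 3 of apoE-/- was left out, and 2 were without replicate 2 of apoE-/-. Mgat5, the branching enzyme best known for raising galectin binding, had a log2 change of 0.15 ± 0.12 (limma adjusted p = 0.539), named after its value was seen. Of 18 genes that add or remove sialic acid or fucose caps, 12 were tested and limma called none, with 2 at an unadjusted p under 0.05, near the 18.4% of all genes; the median log2 change was 0.01. The smallest p was that of Neu1, the lysosomal sialidase (385 ± 32.3 against 545 ± 57.1 units, log2 change 0.48 ± 0.13, limma adjusted p = 0.10). Of 6 other genes with a galectin fold, 2 were tested and limma called none, none of them at an unadjusted p under 0.05. They were Lgalsl, a galectin-related protein (log2 change -0.26 ± 0.12, limma adjusted p = 0.278), and Lgals12, the galectin of fat cells (-0.42 ± 0.25, limma adjusted p = 0.427), the latter with 1 high wild-type array.

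**Figure D4:**
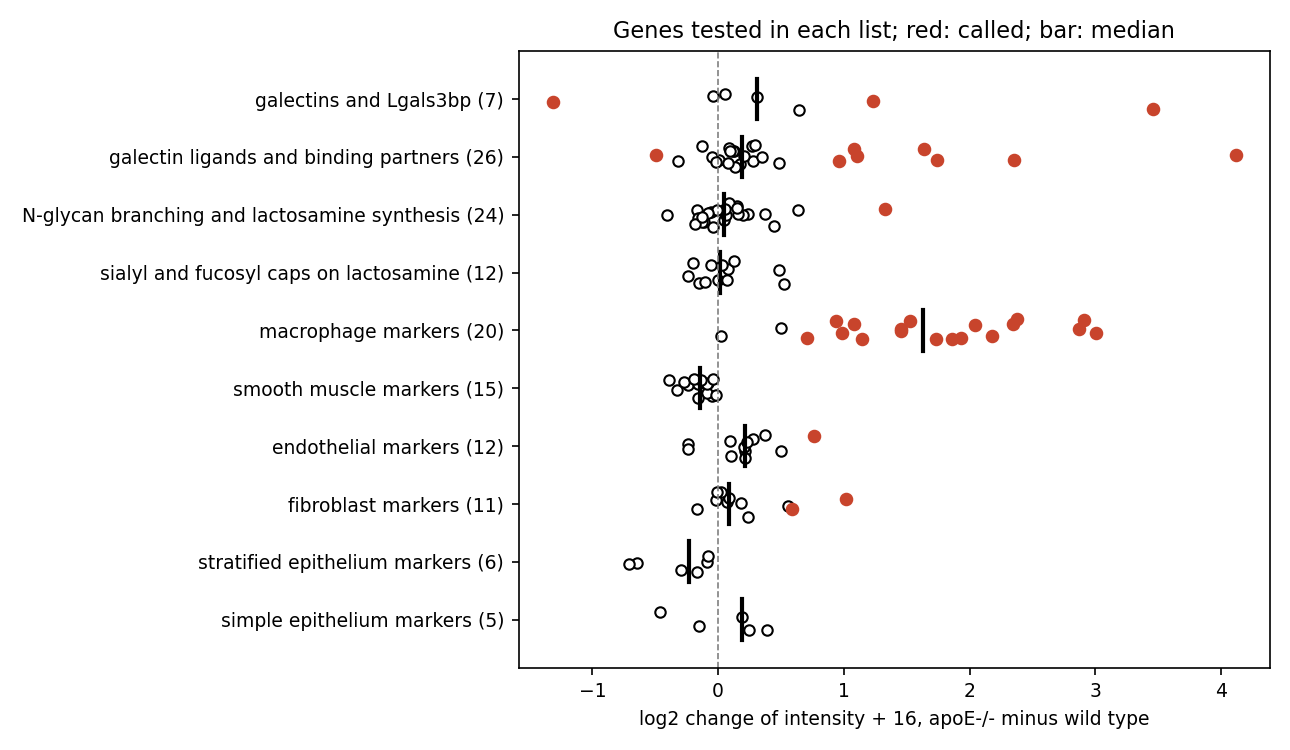
The log2 change of each tested gene (horizontal axis, apoE-/- minus wild type, intensity + 16) in the galectin set and in 9 gene lists, with the number tested in brackets; red points were called, open points were not, and the black bar is the list median. The macrophage list has its median at 1.63 and the smooth muscle list at -0.14, while the 2 lists of glycan enzymes centre near 0. The ligand list includes Trem2, which passed the filter only through the apoE-/- arrays.

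Markers of the other cells of the wall were read beside Lgals1. Of 15 smooth muscle genes limma called none, with 3 at an unadjusted p under 0.05, near the 18.4% of all genes, and their median log2 change was -0.14; without apoE-/- replicate 2, 1 fell. Smtn had the smallest p (log2 change -0.33 ± 0.09, SE, limma adjusted p = 0.0858). Their summed intensity was 134934 to 152600 units in wild type and 119659 to 145676 in apoE-/-. Of 12 endothelial genes 1 rose, Emcn (0.76 ± 0.16, limma adjusted p = 0.0386), where 3.15% of all genes rose. None of the 12 did when replicate 1 or 3 of either genotype was left out. The endothelial sum was 12724 to 17123 units in wild type and 16350 to 19526 in apoE-/-. Of 11 tested fibroblast genes 2 rose, against the same 3.15%, Lum (1.02 ± 0.14, limma adjusted p = 0.00582) and Efemp1 (0.59 ± 0.12, limma adjusted p = 0.0359). Of these 11, 1 rose when replicate 2 or 3 of wild type or replicate 1 or 3 of apoE-/- was left out, and 3 without replicate 2 of apoE-/-. The fibroblast sum did not overlap between genotypes, at 81230 to 84698 and 87992 to 106431 units, but did without Lum, at 76265 to 79846 and 79056 to 93850 units. Of 10 T cell genes, cells that galectin-1 and galectin-9 act on, 4 were tested and limma called none. The kinase Zap70 (log2 change -1.80 ± 0.55, limma adjusted p = 0.133) was the 1 at an unadjusted p under 0.05, where 18.4% of all genes had one. The T cell sum was 1748 to 1929 units in wild type and 897 to 1457 in apoE-/-, without overlap. Without Zap70 the other 3 genes read 659 to 847 and 676 to 798 units, with overlap. These sums without Lum or Zap70 were also added after seeing the data.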

How the data were processed

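Aortic RNA of 3 wild-type and 3 apoE-/- arrays was measured on Affymetrix mouse arrays. The deposited table holds 1 linear intensity per probe set and array; tested on the values, each array's mean after trimming 2% at each end was 500.002, so the authors had scaled the intensities. The software is not given in the sources used here. Probe sets were named from the platform annotation, which listed 35890 (34958 with 1 symbol, 932 with several, which were not used; 9160 others had no entry), with symbols updated through the GRCm38.p6 gene table (34754 found).

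Intensities became log2(intensity + 16). After leaving out 64 control probe sets and the lower 40% by mean, the brightest probe set of each gene gave 13031 genes, fitted with limma 3.58.1 in R 4.3.3 (lmFit, eBayes with an intensity trend, genotype as the only term) and adjusted by Benjamini-Hochberg over all of them. A second fit took all 45037 probe sets. The fit was tested on simulated data. The number of arrays limits the precision.

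Named genes are the members, the called genes of each list with the largest change, at most 4 (where none was called, the one with the smallest p), and the 3 genes nearest to each called member; exceptions are stated. Members and lists were chosen with earlier results of these data known. Alternatives were array weights, log offsets of 1 and 64, a 60% filter or none, median centring or quantile normalization, a replicate block, the median over probe sets of a gene, a fit with no trend, and each array left out.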

Additional observations from a re-analysis of the deposited data

How the results depend on the processing

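The Lgals3 log2 change lay between 3.33 and 3.68 and was called in each of 16 alternatives; signs of Lgals2, Lgals3bp, Lgals4 and Lgals9 held in each alternative run, while the adjusted p-values of Lgals3bp, Lgals4 and Lgals9 crossed the threshold as given above. Signs turned for values near 0. With single arrays left out, the log2 change of Lgals1 ran from -0.10 to 0.014 (0.014 without wild type replicate 2). That of its dimmer probe set ran from -0.088 to 0.067, with 0.067, 0.031 and 0.053 without replicate 2 of wild type and replicates 2 and 3 of apoE-/-, and was 0.024 with median centring and 0.017 with array weights. That of Lgals8 ran from -0.017 to 0.16, with -0.0069 without replicate 2 of wild type and -0.017 without replicate 3 of apoE-/-.

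Galectin genes called higher numbered 1 with no filter, no intensity trend, the median of probe sets or the replicate block, and 1 to 3 with single arrays left out. Those called lower numbered 0 with a 60% filter, which leaves Lgals4 untested, and 0 to 1 with single arrays left out. In the fit of all probe sets, 1 galectin probe set was called lower with a log offset of 1, quantile normalization, median centring, array weights or a 40% filter, and 0 to 1 with single arrays left out.

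Over all genes, 143 to 534 were called higher and 10 to 152 lower with single arrays left out (410 and 63 with all), and 41, 31, 121 and 18 lower with median centring, no intensity trend, array weights and the replicate block. The replicate numbers do not pair the arrays: same-numbered deviations correlated at -0.10, -0.18 and -0.05, and 0 of 6 arrays lay closest to their own number. With the block 301 genes were called in all, 18 of them lower, and Lgals3bp was not called (limma adjusted p = 0.128).

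Of the lists, ligands called higher numbered 12 with the median of probe sets and 2 to 8 with single arrays left out; ligands called lower 0 with quantile normalization, median centring, no filter, no intensity trend or the replicate block, and 0 to 2 with single arrays left out. Branching genes numbered 0 to 2 higher with single arrays left out, and 1 lower with a 60% filter or array weights. Endothelial genes called higher numbered 0 with quantile normalization, no filter, no intensity trend or the replicate block and 0 to 1 with single arrays left out; fibroblast genes 1 with median centring, no filter, no intensity trend or the replicate block and 1 to 3 with single arrays left out. Smooth muscle genes called lower numbered 0 to 1 with single arrays left out, and stratified epithelium genes 1 with the median of probe sets. Median centring raised log2 changes of all genes alike and moved no called galectin across 0. The dimmest genes, Lgals2 and Lgals7, are limited by signal over background, which the table does not give.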
